A study of Osmanthus fragrans with 6 samples.

Results

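The change from full bloom to late full bloom was read from 2 RNA sequencing libraries made from petals of Osmanthus fragrans var. semperflorens. This sweet osmanthus blooms in several rounds. Late full 1 is the library of late full bloom in flowering round 1, and full 1 is the library of full bloom in the same round. Both came from untreated trees in the open, picked in September. Each library holds 5 replicates pooled before sequencing, so each stage is 1 library. Of 96596 assembled transcripts in the table, the 23059 with at least 50 counts over the pair were tested, which is 23.9% of the transcripts but 99.0% of the counts of either library. The series holds 6 libraries, 4 from round 1 and 2 from round 2. The 3 other deep ones, abscission 1 (the shedding stage of round 1), initial 2 and full 2 (opening and full bloom in round 2), serve here to follow the transcripts that differ.

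Sweet osmanthus petals owe their yellow to orange colour to carotenoids, plastid pigments of the terpenoid family. Carotenoid cleavage dioxygenases cut these pigments into scent volatiles such as ionones. A petal is a short-lived organ, which after full bloom enters senescence, when its macromolecules are broken down and exported, and is then shed at an abscission zone. The study followed flower colour and carotenoid genes through these stages. The transcript IDs of the table come without gene names, so no transcript is given a function here, and neither the carotenoid genes nor markers of petal tissue were analysed.

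Late full 1 held 25917463 counts and full 1 held 19797486, and the other 3 deep libraries held 17826687 to 39119106. With 1 library per stage no spread within a stage was measured, so no test was possible, no p-value is given, and no difference here has a replicate check. Levels are CPM, counts scaled so that each column sums to 1000000. Intervals are exact 95% Clopper-Pearson intervals and cover counting error only, not the spread between pools. Reads are not independent molecules, so even the counting error may be understated. A level is a share of the library. In pooled petals, fewer cells of a type and less RNA per cell cannot be told apart.

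Most transcripts moved little. The log2 ratio of late full 1 to full 1 (taken with a prior count of 2) had a median of -0.21 over the 23059 transcripts, with quartiles at -0.65 and 0.22. Of all tested transcripts, 17943 (77.8%) lay within 2-fold, and the range ran from -8.78 to 8.41. The median itself depended on the scaling. TMM factors, which set the bulk of transcripts level, were 0.928 for late full 1 and 1.08 for full 1 and put the median at 0.00. A typical transcript was therefore lower in late full 1 as a share of the library and level with full 1 after TMM scaling.

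Among the 10 possible pairs of the 5 deep libraries, late full 1 with full 1 had the second narrowest spread. The interquartile range of its log2 ratios was 0.87, against 0.81 for initial 2 with full 1, the narrowest pair. The step after it was wider, at 1.11 for abscission 1 with late full 1, and full 2 with initial 2 stood at 1.52. By the summed CPM difference, in which abundant transcripts weigh most, late full 1 with full 1 was the fourth smallest of the 10 pairs, at 22.7% of a library. Full 2 with late full 1 stood at 20.7% and initial 2 with full 1 at 15.9%, the smallest. These values come from pairs that share libraries and differ in depth, so they are a description.

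A transcript was called when it differed at least 4-fold. In late full 1, 676 transcripts (2.93%) were at least 4-fold higher than in full 1 and 627 (2.72%) at least 4-fold lower. TMM scaling gave 813 higher (3.53%) and 453 lower (1.96%). The higher transcripts thus made up 51.9% of the calls with column totals and 64.2% with TMM. The balance shifted with the size of the fold. At 2-fold, 1916 transcripts were higher and 3200 lower with column totals, a balance that turned with TMM, to 2501 higher and 2205 lower. At 8-fold, 315 were higher and 154 lower, and at 16-fold 158 were higher and 48 lower. TMM gave the same side at these steps, with 365 higher and 116 lower at 8-fold and 183 higher and 40 lower at 16-fold. Large differences were therefore mostly gains with column totals, whereas the balance of 2-fold differences was set by the scaling. TMM raises every ratio of late full 1 to full 1, so it could only widen the excess of gains and is no check on it. With late full 1, the deeper library, thinned at random to the total of full 1, 601 transcripts were higher and 638 lower at 4-fold. The 8-fold and 16-fold steps were not repeated with thinning. Near the threshold the ratios were continuous. The smallest called log2 ratio was 2.0008 in size and the largest not called 1.9993, with 225 transcripts between 4-fold and 4.5-fold and 334 between 3.5-fold and 4-fold. At the count minimum, 141 transcripts had exactly 50 counts over the pair and 150 had 49.

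**Figure D1:**
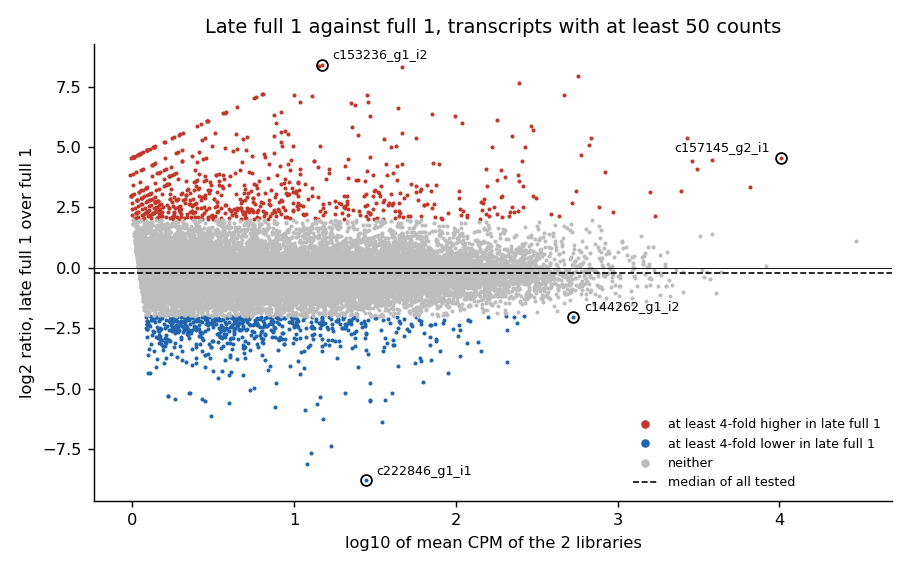
Log2 ratio of late full 1 over full 1 (vertical axis) against the log10 of the mean CPM of both libraries (horizontal axis), 1 point per transcript with at least 50 counts over the pair. Red points are the 676 transcripts at least 4-fold higher and blue points the 627 at least 4-fold lower in late full 1; the dashed line is the median of -0.21, circles mark the named transcripts, and the blue points thin out towards high abundance while red ones go on.

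The calls depended on abundance, and the higher and the lower ones did so in different ways. Of the 81 transcripts with a mean of at least 1000 CPM in the pair, 9 (11.1%) were at least 4-fold higher in late full 1 and 0 were lower. TMM gave the same counts, but it raises every ratio of the pair. It could therefore neither remove a higher call nor add a lower one. Between 300 and 1000 CPM, 14 of 373 were higher and 1 lower, and between 100 and 300 CPM 43 of 1552 were higher and 17 lower. In the middle of the range the balance was the other way. Between 3 and 10 CPM, 175 of 5762 (3.04%) were higher and 221 (3.84%) lower, and between 10 and 30 CPM 84 of 4965 were higher and 121 lower. TMM turned the balance of these middle bins, to 214 higher and 159 lower between 3 and 10 CPM and 110 higher and 90 lower between 10 and 30 CPM. Among the bins with at least 20 transcripts, the spread of the ratios was narrowest at intermediate levels, with an interquartile range of 0.66 between 30 and 100 CPM, against 1.12 between 1 and 3 CPM and 1.11 at 1000 CPM or more. Counting error is largest in the lowest bin.

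A bin defined by the mean of the pair shares its counts with the ratio, so the same transcripts were also binned by their mean level in abscission 1, initial 2 and full 2. Of the 92 transcripts with at least 1000 CPM there, 21 (22.8%) were at least 4-fold higher in late full 1 and 0 lower. The counts with TMM were the same, which for the 0 lower ones was fixed in advance. The median log2 ratio of the 92 was 0.33 with column totals and 0.55 with TMM. This mean includes abscission 1, where the higher set summed to 238944 CPM, against 9231 in initial 2 and 61613 in full 2. Higher transcripts can therefore enter the top bin through abscission 1, so this binning is not neutral for them. At the other end, of the 1951 transcripts under 1 CPM in those libraries, 135 (6.92%) were higher and 37 (1.90%) lower. Between 3 and 10 CPM, 128 of 5538 (2.31%) were higher and 231 (4.17%) lower. With TMM, 161 were higher and 169 lower in that bin. A transcript of the lowest bin entered only through its counts in the pair, and late full 1 was the deeper library there. With late full 1 thinned at random to the total of full 1, a setting added after the data were seen, that bin held 1355 tested transcripts, 93 higher and 32 lower.

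**Figure D2:**
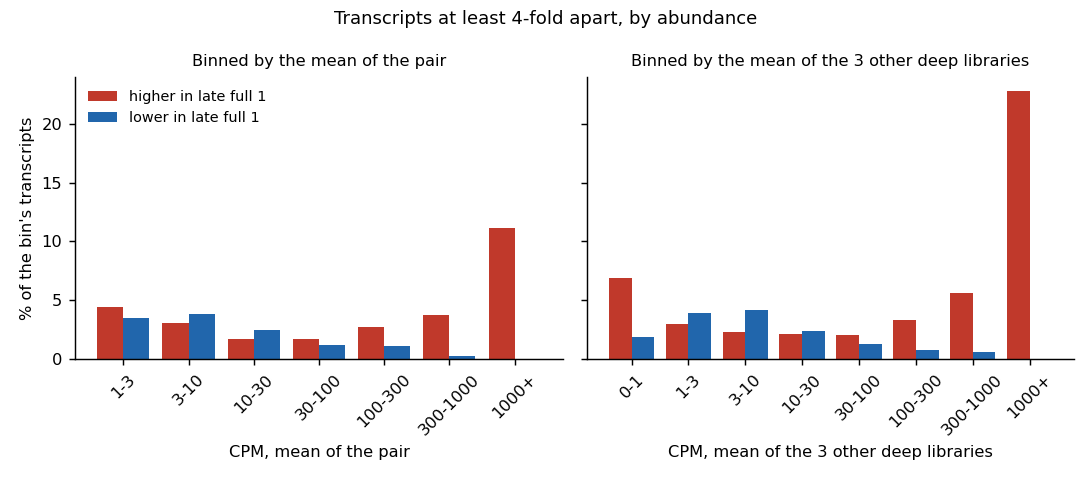
Share of transcripts at least 4-fold higher (red) or lower (blue) in late full 1 than in full 1, in % of the transcripts in each CPM bin, binned by the mean of the pair (left) and by the mean of abscission 1, initial 2 and full 2 (right); 7 transcripts under 1 CPM in the pair are not drawn. In the bin of 1000 CPM or more the higher share is 11.1% on the left and 22.8% on the right, and the lower share is 0 in both.

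With column totals, the gains were concentrated and the losses diffuse. These sums were not repeated with TMM, which moved the median log2 ratio from -0.21 to 0.00. The size of shallow losses therefore depends on the scaling. Summed over all transcripts, 227149 CPM (22.7% of a library) were gained in late full 1 and, since all libraries have the same sum, the same amount was lost. A set of 40 transcripts made up 50% of the gain, whereas 604 transcripts were needed for 50% of the loss. The 10 largest gains held 37.3% of all gain and the 10 largest losses 6.28% of all loss. Among the 40 leading gains, 20 were at least 4-fold higher and 7 were under 2-fold, with a median log2 ratio of 2.05. The 604 leading losses were shallower than these gains, with a median log2 ratio of -0.89, 49 at least 4-fold lower and 343 under 2-fold. Of all 23059 tested transcripts, 676 (2.93%) were at least 4-fold higher, 627 (2.72%) at least 4-fold lower and 17943 (77.8%) within 2-fold. Both groups were picked by their CPM difference in the pair, so their ratios are a description. The 40 transcripts summed to 15.5% of late full 1 and 4.10% of full 1. The 604 summed to 17.4% of late full 1 and 28.8% of full 1.

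The same concentration shows in the make-up of the libraries. The 10 most abundant transcripts held 11.5% of the counts of late full 1 and 5.87% of those of full 1. The 100 most abundant held 25.7% in late full 1 and 18.4% in full 1. Outside the pair the share of the top 10 was 17.3% in abscission 1, 6.64% in initial 2 and 6.17% in full 2. The single largest gain was a transcript that ranked first in all 5 deep libraries. It stood at 40928 CPM in late full 1 and 18833 CPM in full 1, a ratio of 2.17, and at 30458 CPM in abscission 1, 28216 in initial 2 and 15931 in full 2.

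**Figure D3:**
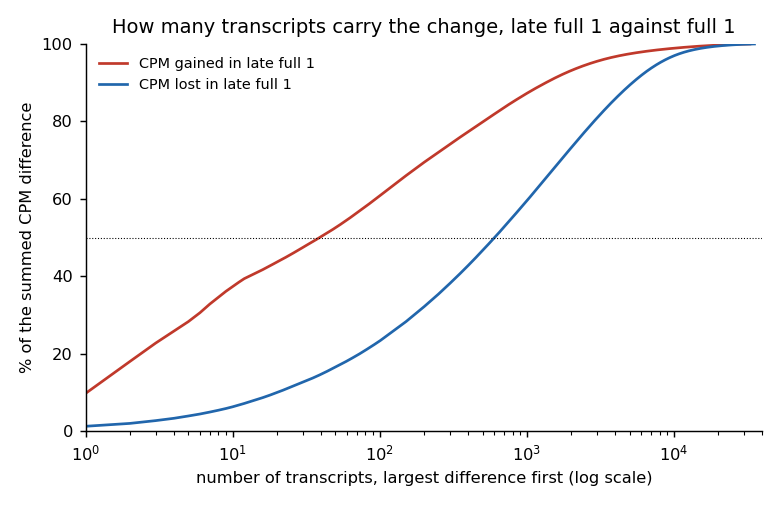
Cumulative share of the CPM gained (red) and lost (blue) in late full 1 relative to full 1, in % of the summed difference (vertical axis), against the number of transcripts ranked by their difference (horizontal log axis). The red curve reaches 50% at 40 transcripts and the blue curve at 604.

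A pair of higher and a pair of lower transcripts were named among the 4-fold calls, taken from those whose higher library held at least 200 counts, as the extreme ratio and then the extreme CPM difference each way. All 4 differ at least 4-fold by this rule, so their ratios are a description, and larger CPM differences of under 4-fold fall outside it. Transcript c157145_g2_i1, the largest gain among the calls, had 506550 counts in late full 1 and 16411 in full 1. That is 19545 CPM (95% interval 19492 to 19598) in late full 1 and 829 CPM (816 to 842) in full 1. It was 23.6-fold higher in late full 1 (23.2 to 23.9), or 27.4-fold with TMM, and ranked second of all transcripts there, against rank 102 in full 1. Outside the pair it stood at 28743 CPM in abscission 1, 705 in initial 2 and 11743 in full 2. It was high in late full 1, abscission 1 and full 2, where it ranked second each time, and low in full 1 and initial 2.

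Transcript c153236_g1_i2 had the highest ratio, with 767 counts in late full 1 (29.6 CPM) and 0 in full 1. Taking 3 counts as the floor of full 1, which is 0.152 CPM, it was at least 195-fold higher in late full 1, or at least 227-fold with TMM. The lower limit of the exact 95% interval was smaller, at 158-fold, or 184-fold with TMM. It had 0 counts in abscission 1, 259 in initial 2 (6.62 CPM) and 5 in full 2 (0.260 CPM). Its level was thus confined, among the 5 deep libraries, mostly to late full 1 and initial 2, a course unlike that of c157145_g2_i1.

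Transcript c222846_g1_i1 had the lowest ratio, with 1 count in late full 1 and 1098 in full 1 (55.5 CPM). It was 1437-fold lower in late full 1, with an interval of 257 to 56826 that reflects the single count, and 1237-fold with TMM. It was present in every other deep library, at 10.6 CPM in abscission 1, 59.1 in initial 2 and 20.6 in full 2. Late full 1 was therefore the lowest point, and the level in abscission 1 was well above it.

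Transcript c144262_g1_i2, the largest loss among the calls, stood at 209 CPM in late full 1 (203 to 214) and 854 CPM in full 1 (841 to 867). It was 4.09-fold lower in late full 1 (3.97 to 4.22), but 3.52-fold with TMM, which puts it outside the threshold. It stood at 76.1 CPM in abscission 1, 495 in initial 2 and 346 in full 2. Its loss of CPM is small beside the gain of c157145_g2_i1, and no transcript at or above 1000 CPM in full 1 was at least 4-fold lower in late full 1.

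**Figure D4:**
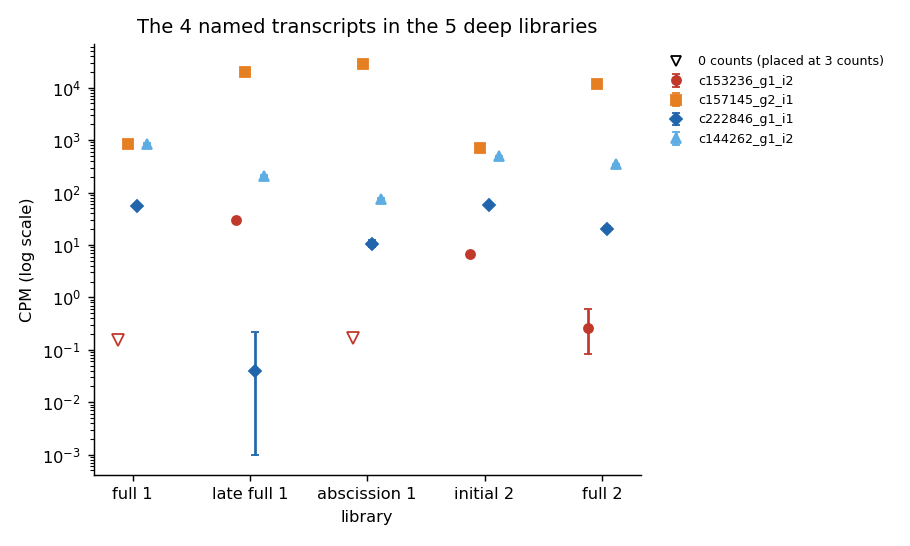
CPM (log axis) of the 4 named transcripts in the 5 deep libraries, with exact 95% counting intervals as bars where they exceed the symbol; open triangles mark counts of 0, placed at 3 counts. c157145_g2_i1 lies at 829 CPM or less in full 1 and initial 2 and at 11743 CPM or more in the others, while c222846_g1_i1 drops to 0.0386 CPM in late full 1 alone.

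The 20 highest ratios among the 343 higher transcripts with at least 200 counts in late full 1 ran from 6.47 to 8.41 on the log2 scale. These 20 had a median of 29.1 CPM in late full 1 and 0.101 CPM in full 1, where 7 had 0 counts. Their levels outside the pair were uneven. In abscission 1 they spanned 0 to 12530 CPM with a median of 30.2, and 13 of the 20 were at their highest of the outside libraries there. The other 7 were highest in initial 2, and 0 in full 2. Over all tested transcripts, 16.0% were highest in abscission 1 and 59.3% in initial 2. Between full 2 and initial 2, 11 of these 20 were at least 4-fold higher in full 2 and 7 at least 4-fold lower. Over all tested transcripts those shares were 4.59% and 10.1%. The 20 lowest ratios among the 269 lower transcripts ran from -8.78 to -4.72. They had a median of 0.463 CPM in late full 1 and 32.0 CPM in full 1. Outside the pair their median was 1.35 CPM in abscission 1, 27.6 in initial 2 and 3.25 in full 2. Of these 20, 18 were highest in initial 2, against 59.3% of all tested transcripts. Between full 2 and initial 2, 13 were at least 4-fold lower in full 2 and 1 at least 4-fold higher.

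A set of 16 higher transcripts reached at least 1000 CPM in late full 1. They summed to 7.49% of late full 1 and 0.529% of full 1, with medians of 2816 CPM in late full 1 and 286 CPM in full 1. All 16 were higher in abscission 1 than in initial 2 or full 2, whereas 16.0% of all tested transcripts were highest there. The 16 had a median of 6723 CPM in abscission 1 and summed to 16.1% of that library. In initial 2 they summed to 0.407% and in full 2 to 4.36%. Between full 2 and initial 2, a pair that shares no library with the calls, 15 of the 16 were at least 4-fold higher in full 2, against 4.59% of all tested transcripts. The counterpart among the lower transcripts used a lower cut-off, since none of them reached 1000 CPM in full 1. The 38 lower transcripts with at least 100 CPM in full 1 summed to 0.137% of late full 1 and 0.793% of full 1. With TMM, 28 of the 38 passed the 4-fold threshold. TMM raises every ratio of the pair, so only lower calls could drop out, and the 16 higher ones could not. In round 2, 5 of the 38 were at least 4-fold lower and 4 at least 4-fold higher in full 2 than in initial 2, against 10.1% and 4.59% of all tested transcripts.

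Each called set was read in its higher library, a choice that favours high levels. There the share under 10 CPM was near that of all tested for the higher set and above it for the lower set. Binned by the mean of the pair, 4.42% of transcripts between 1 and 3 CPM were higher and 3.49% lower. Over all tested transcripts these shares were 2.93% and 2.72%, so calls were more frequent in that bin. In late full 1, 378 of the 676 higher transcripts (55.9%) were under 10 CPM, against 54.8% of all tested transcripts in that library. A further 210 were between 10 and 100 CPM and 72 between 100 and 1000 CPM. In full 1, 355 of the 627 lower transcripts (56.6%) were under 10 CPM, against 50.8% of all tested there. A further 234 were between 10 and 100 CPM and 38 above that, up to 854 CPM. A count of 0 in 1 library of the pair was uneven between the sides. Of the tested transcripts, 50 had 0 counts in full 1 and 51 to 767 in late full 1, and 5 had 0 counts in late full 1 and 66 to 476 in full 1. Late full 1 was the deeper library. With its counts thinned at random to the total of full 1, a setting added after the data were seen, 33 tested transcripts had 0 counts in full 1 and 6 had 0 counts in late full 1. Of the 50, 24 had 0 counts in all 3 outside libraries as well, and all 5 of the others had counts over 3 in initial 2 and in full 2. Over all 23059 tested transcripts, 190 had 0 counts in abscission 1, 43 in initial 2 and 189 in full 2. The 50 and the 5 entered the test only through the library of the pair that held their counts.

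The levels of the called transcripts were then followed in the deep libraries. The 676 higher transcripts summed to 9056 CPM in full 1, 106060 in late full 1, 238944 in abscission 1, 9231 in initial 2 and 61613 in full 2. Their 10 most abundant members made 67175 CPM of the sum in late full 1 and 145071 CPM of that in abscission 1. The medians over the 676 put the libraries in the same order, at 0.758 CPM in full 1, 8.08 in late full 1, 9.82 in abscission 1, 1.46 in initial 2 and 3.53 in full 2. The 627 lower transcripts summed to 16602 CPM in full 1, 2711 in late full 1, 2795 in abscission 1, 15257 in initial 2 and 8504 in full 2. Their medians were 7.83, 1.20, 1.35, 9.64 and 3.22 CPM in the same libraries. The higher set was thus low in initial 2 and intermediate in full 2, and the lower set was near its full 1 level in initial 2 and intermediate in full 2. The counting interval of each of these sums was within 0.881% of its value.

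The step that follows, abscission 1 over late full 1, shares late full 1 with the calls, so its values are given side by side and no agreement is read from them. Its median log2 ratio was 0.16 for the higher set, with quartiles at -1.96 and 1.38, and -0.03 for the lower set, with quartiles at -0.78 and 0.76. Over all tested transcripts it was -0.35, with quartiles at -0.98 and 0.18. The higher set was the most spread of these.

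**Figure D5:**
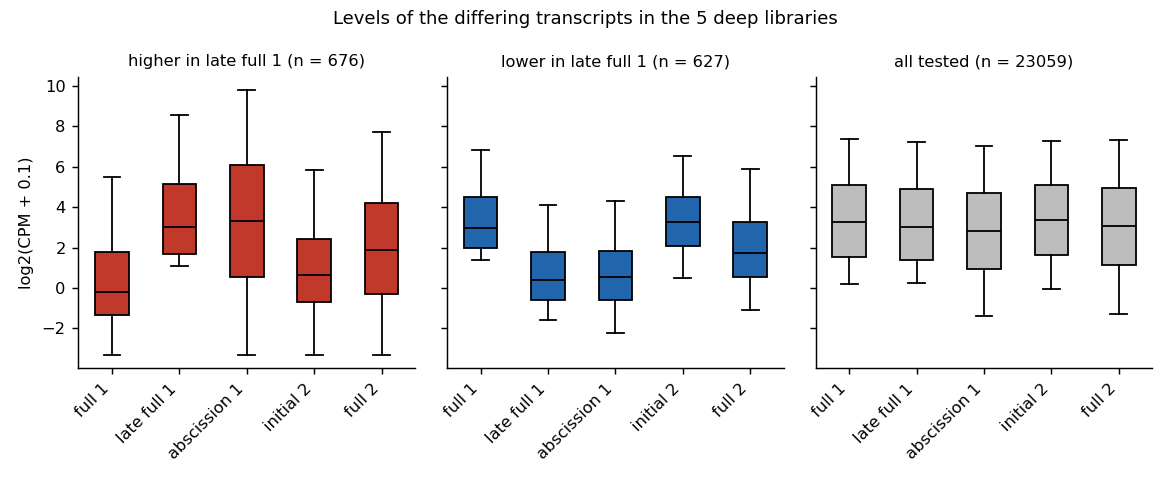
Levels as log2(CPM + 0.1) in the 5 deep libraries for the 676 transcripts higher in late full 1 (red), the 627 lower (blue) and all 23059 tested (grey); boxes show the quartiles and median, whiskers the 5th and 95th percentiles. The red set is low in full 1 and initial 2, the blue set is low in late full 1 and abscission 1, and the grey boxes stay nearly level.

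Libraries outside the pair give values that the calls did not use. Among abscission 1, initial 2 and full 2, 473 of the 676 higher transcripts (70.0%) were highest in abscission 1, against 16.0% of all tested transcripts. Of the 627 lower transcripts, 7 (1.12%) were highest in abscission 1 and 529 (84.4%) in initial 2, against 59.3% of all tested. With TMM over the 5 deep libraries, 74.8% of the 829 higher transcripts and 30.2% of all tested were highest in abscission 1. On that scaling 77.8% of the 441 lower transcripts and 41.9% of all tested were highest in initial 2.

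Full 2 against initial 2 is the bloom step of round 2 and shares no library with the calls. It runs from opening to full bloom, whereas the calls compare full with late full bloom, so the stages are not matched. Of the 676 higher transcripts, 486 (71.9%) were higher in full 2 than in initial 2, against 35.3% of all tested, with a median log2 ratio of 1.35 against -0.38. At least 4-fold higher in full 2 were 259 of them (38.3%), against 4.59% of all tested. Of the 627 lower transcripts, 534 (85.2%) were lower in full 2, against 64.5% of all tested, with a median log2 ratio of -1.48. With TMM these shares were 74.5% of the 813 higher transcripts against 48.3% of all tested, and 80.6% of the 453 lower ones against 51.6%. Here the calls used TMM factors from the pair, and the round 2 ratios used factors from the 5 deep libraries. Taken over both directions, 1020 of the 1303 called transcripts (78.3%, interval 75.9 to 80.5) differed the same way in round 2. The shares over all tested transcripts to set beside it are the 35.3% and 64.5% given by direction. Transcripts are not independent replicates, and the interval covers neither their ties nor the spread between pools.

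Abscission 1 against initial 2 also lies outside the pair and spans a longer course, across both rounds. There the median log2 ratio was 2.68 for the higher set, -2.71 for the lower set and -0.69 for all tested transcripts. Of the lower set, 438 (69.9%) were at least 4-fold lower in abscission 1, against 14.5% of all tested. Of the higher set, 405 (59.9%) were at least 4-fold higher, against 5.11% of all tested. With TMM the medians were 3.01 for the higher set, -2.20 for the lower set and -0.10 for all tested. The calls again used factors from the pair and the ratios factors from the 5 deep libraries.

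The called transcripts were also divided by the outside library in which each was highest, a split that by itself gives the subsets different courses in those 3 libraries. The 473 transcripts highest in abscission 1 had medians of 1.06 CPM in full 1, 10.4 in late full 1, 26.3 in abscission 1, 1.43 in initial 2 and 5.72 in full 2. The 121 highest in initial 2 had medians of 0.505 CPM in full 1, 4.32 in late full 1, 0.393 in abscission 1, 1.89 in initial 2 and 0.312 in full 2. The 82 highest in full 2 had medians of 0.606 CPM in full 1, 4.78 in late full 1, 2.27 in abscission 1, 1.05 in initial 2 and 4.08 in full 2. By weight the first subset dominated, with 101168 CPM of the 106060 CPM of the higher set in late full 1, against 2935 CPM for the 121 and 1957 CPM for the 82. In the lower set the 529 transcripts highest in initial 2 had medians of 7.48 CPM in full 1, 1.08 in late full 1, 1.23 in abscission 1, 10.3 in initial 2 and 2.81 in full 2. A further 91 were highest in full 2, with medians of 11.4 CPM in full 1, 1.85 in late full 1, 2.19 in abscission 1, 3.78 in initial 2 and 10.6 in full 2.

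The ID of a transcript gives its assembly component, a group of sequences joined in the assembly graph, often close copies or parts of 1 gene family. Another transcript of the table shared the component for 298 of the 676 higher transcripts (44.1%) and 262 of the 627 lower ones (41.8%), against 49.5% of all tested. Their levels can include reads of a close copy, since how such reads were divided is not given in the sources used here. Of 3601 components with at least 2 tested transcripts, 181 held a higher transcript and 36 of these held 2 or more. A lower transcript was held by 159 components, of which 29 held 2 or more, and 4 components held a transcript of each kind. Tested transcripts of a component lay a median of 0.56 apart on the log2 scale between the highest and the lowest ratio.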

How the data were processed

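Per the series' title and design text, petal reads were assembled de novo, and the 5 replicates of a stage went into 1 library. The submitters' processing notes name CASAVA 1.7. Which assembler, aligner and counter were used is not given in these sources. The authors deposited expected counts per transcript, not scaled between libraries, in 6 columns that each match 1 sample title. These estimated counts were rounded to whole numbers.

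Late full 1 and full 1 were compared by CPM from column totals, with log2 ratios on a prior count of 2 for transcripts with at least 50 counts over the pair. A ratio of at least 4-fold was called. Scaling was repeated with TMM factors from edgeR 4.0.16 and with DESeq2 1.42.0 size factors in R 4.3.3. No count model was fitted. Folds have exact Clopper-Pearson intervals, and a count of 0 was set to a floor of 3 counts. The named transcripts, at most 2 each way because the IDs carry no gene names, are those whose higher library held at least 200 counts with the extreme ratio, then the extreme CPM difference among the remaining calls. The groups of leading and abundant transcripts, the subsets by outside library and the pairs with abscission 1 were added after the data were seen. The comparison and its rules were chosen with earlier results of these data known. Initial 1, with 107466 counts, was left out of the comparison. All else was computed in Python 3.11.15 (SciPy 1.17.1, NumPy 2.4.6, matplotlib 3.10.9 and pandas 2.3.3).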

Additional observations from a re-analysis of the deposited data

Results flagged for a closer look

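Initial 1, the shallow library of opening flowers in round 1, was outside the comparison and held signal for both sets. The 627 transcripts lower in late full 1 summed to 29358 CPM there, on 3155 counts, which is 2.94% of that library (95% interval 2.84 to 3.04). In full 1 they summed to 1.66%. The 676 transcripts higher in late full 1 summed to 4448 CPM in initial 1, on 478 counts, or 0.445% (0.406 to 0.486), against 0.906% in full 1. Most single transcripts of the higher set could not be followed there, since 528 of the 676 had 0 counts, as had 196 of the 627. Among the named transcripts, c144262_g1_i2 had 198 counts in initial 1, or 1842 CPM (1595 to 2117). The others had 10 counts (c222846_g1_i1), 9 (c157145_g2_i1) and 0 (c153236_g1_i2).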

How the results depend on the processing

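The median log2 ratio was -0.21 with column totals but 0.0032 with TMM factors from the pair, 0.029 with TMM factors from the 5 deep libraries and 0.0010 with DESeq2 size factors. It was -0.078 with totals that leave out the 100 most abundant transcripts, -0.13 with a minimum of 10 counts, -0.23 with 200, -0.051 with no minimum and -0.22 with late full 1 thinned to the total of full 1. Counts of calls stayed within 1.5 times the main ones under the 4 scalings, a prior count of 0.5 and thinning. Higher and lower transcripts numbered 1619 and 1207 with a minimum of 10 counts, 354 and 299 with 200, and 2043 and 1434 with no minimum. They numbered 1916 and 3200 at 2-fold and 315 and 154 at 8-fold. After thinning, 601 were higher and 638 lower, which turns the near balance of the calls. The share of calls that differed the same way in round 2 was 64.4% with a minimum of 10 counts, 61.1% with no minimum, 81.8% with 200 and 73.5% at 2-fold. No share over all tested transcripts was computed for these settings. Lower minimums add transcripts of few counts; otherwise the cause was not tested. All 4 named transcripts kept their direction under the 5 settings run on them. They were picked as at least 4-fold apart, and the scalings moved the median log2 ratio only from -0.21 to at most 0.029. A change of scaling could therefore not have reversed them. No paired analysis was possible because each stage is 1 library. Leaving out a replicate was likewise not possible.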

Other observations

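A group of 26 transcripts was at least 4-fold higher in both late full 1 and initial 2 than in each of full 1, abscission 1 and full 2, with at least 50 counts in both. Their medians were 0.253 CPM in full 1, 10.5 in late full 1, 0.112 in abscission 1, 3.78 in initial 2 and 0.156 in full 2. At their highest they reached 92.8 CPM in late full 1 and 31.4 in initial 2, against 6.87 in full 1, 1.01 in abscission 1 and 0.624 in full 2. The transcript c153236_g1_i2 belongs to it by its counts. By the same measure, 104 transcripts were high in both full 1 and initial 2 and low in the other deep libraries, with medians of 9.37 CPM in full 1, 0.830 in late full 1, 0.729 in abscission 1, 12.6 in initial 2 and 1.35 in full 2. Both patterns were looked for after the data were seen, and with 1 library per stage neither can be told apart from a feature of single pools.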
